A study of Glycine max with 4 samples.

Results

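Glyma18g41320 and Glyma07g16770 are a pair of soybean loci that the study's supplement annotates alike, as members of the family of lipid transfer proteins (LTPs), protease inhibitors and seed storage proteins. They were selected on measured values, since both are among 28 transcripts that the supplement lists as raised in each treatment over water, and both had far more reads in the salt library than in water. The table of mapped reads and RPKM (read counts divided by transcript length and by the size of the library) holds 55787 transcript models of 46367 loci. Each of the 2 loci has 1 model in it, Glyma18g41320.1 with a length of 363 bases and Glyma07g16770.1 with 357. These lengths are whole numbers of codons, 121 and 119, and 95.8% of all lengths in the table are multiples of 3, so they are read here as coding lengths. By the naming of the loci, one lies on chromosome 18 and the other on chromosome 7. The files give no coordinates, sequence or gene symbol for them, and none of the RefSeq gene records used here names a locus of the table, so similarity between the 2 sequences was not examined.

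Plant LTPs are small secreted proteins whose conserved cysteines form disulphide bridges around a hydrophobic cavity, in which lipids can be carried. The same fold is shared by inhibitors of amylases and proteases and by storage albumins of seeds, which is why annotation pipelines use the combined family name. In leaves, LTPs are made largely in the epidermis and are associated with the deposition of wax and cutin in the cuticle. LTP genes of several plant species are known to respond to salt, drought and pathogens.

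RNA was taken from leaves of *Glycine max* seedlings given water (H2O), 100 µM melatonin (Mt), 1% NaCl (NaCl) or both together (NaCl+Mt), with 1 library for each. The labels and methods describe the seedlings as 3 weeks old, and another passage as 2 weeks old. The genotype is given as the cultivar SuiNong 28 for the growth experiments, and no transgene or mutant is involved. The melatonin stock was made in ethanol, and the methods do not say whether the libraries without melatonin received ethanol, so melatonin and its solvent cannot be told apart here. The number of plants behind a library and the hours of treatment are not given in the sources used here. Libraries held between 22908979 and 36945028 reads on transcript models. The leaf label was checked with *rbcS* (Glyma13g07610), the small subunit of Rubisco, whose RPKM was lowest in H2O, at 1019, and reached 5644 in Mt, 3530 in NaCl and 2781 with both agents. The 3 leaf genes examined were *rbcS*, *LHCB4.3* of the antenna of photosystem II and *CHLM* of chlorophyll synthesis. In H2O, *LHCB4.3* was at an RPKM of 8.87 and *CHLM* at only 1.33, from 38 reads. All 3 were at least 2-fold higher in each treatment than in H2O, as the pair was. *LHCB4.3* and *CHLM* are on the same list of transcripts raised in each treatment as the pair. For these genes the rise over H2O was therefore fixed by that list and is no independent evidence. Such a rise was called for 21.2% of all transcripts tested in Mt:H2O, 7.31% in NaCl:H2O and 4.92% in NaCl+Mt:H2O. The part of the leaf genes in the values of the pair was not tested.

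With 1 library per condition, no difference could be set against variation between plants, and no p-value was computed. Intervals of levels, ratios and shares are exact 95% intervals for the counting of reads alone, and those of differences between log2 ratios use the normal approximation. No molecular identifiers are described and several reads can stem from 1 molecule, so the error may be wider. In whole leaves, a change in the number of cells that express a gene and a change in RNA per cell cannot be told apart.

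In water, both transcripts were close to the limit of detection. Glyma07g16770.1 had 13 reads in H2O, an RPKM of 1.25. Glyma18g41320.1 had 3 reads, which is the floor used here, and was listed at an RPKM of 0. From its reads the RPKM would be 0.283, with a counting interval from 0.0583 to 0.826. In the deposited table, 484 of the 602 transcripts with 3 reads in H2O were listed at an RPKM of 0. The methods define RPKM by uniquely mapped reads, and the table does not say which of its reads were unique. Whether the 3 reads came from Glyma18g41320 was therefore not settled, and each ratio of this locus to H2O carries that limit.

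With salt alone, the pair reached its highest levels. Glyma07g16770.1 had 1787 reads and an RPKM of 138 in NaCl, which placed it at rank 630 of the 41822 transcripts with an RPKM above 0 in that library. Glyma18g41320.1 had 1147 reads and an RPKM of 87.2, at rank 1263. In H2O, Glyma07g16770.1 had been at rank 36066 of 41854. The pair was thus among the weakly expressed transcripts in water and in the upper 1.51% and 3.02% under salt. The median RPKM of transcripts with an RPKM of at least 1 was 7.85 in NaCl and 8.47 in H2O.

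With melatonin alone, the levels were intermediate. Glyma07g16770.1 had 111 reads and an RPKM of 10.7 in Mt, and Glyma18g41320.1 had 75 reads and an RPKM of 7.10. With salt and melatonin together, Glyma07g16770.1 had 329 reads and an RPKM of 19.7, and Glyma18g41320.1 had 152 reads and 8.93. The order of the 4 libraries was therefore NaCl, NaCl+Mt, Mt, H2O for both loci. The last place of H2O was fixed by the list from which the loci were taken. The counting intervals of NaCl+Mt and Mt overlapped for Glyma18g41320.1, from 7.57 to 10.5 against 5.59 to 8.90, and those of every other neighbouring step did not overlap for either locus.

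**Figure D1:**
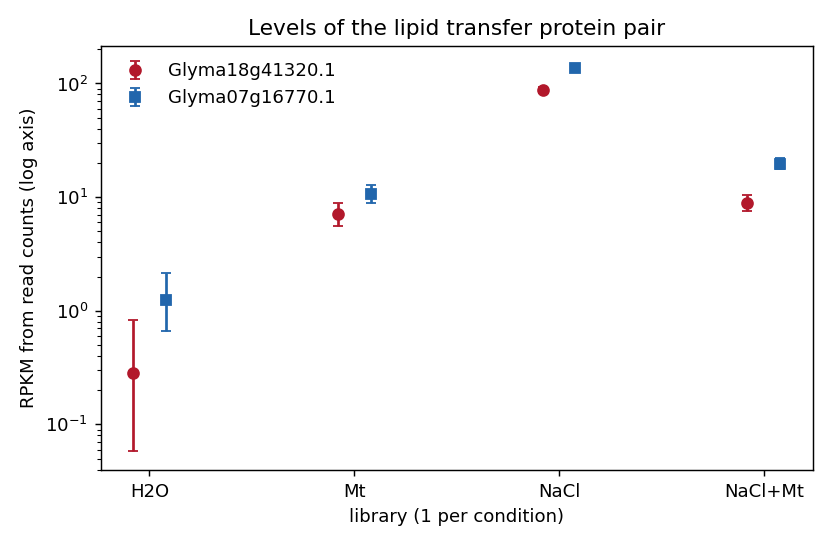
RPKM computed from the read counts (y, log axis) of Glyma18g41320.1 (circles) and Glyma07g16770.1 (squares) in the 4 libraries (x), with exact 95% intervals for the counting of reads. Both loci were highest in NaCl, at 87.2 and 138, and lowest in H2O, at 0.283 and 1.25.

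The comparison NaCl:H2O asks which transcripts salt changed in the absence of melatonin. Glyma07g16770.1 was 111-fold higher in NaCl than in H2O, with a counting interval from 64.7 to 209. Glyma18g41320.1 was 308.5-fold higher, but this ratio rests on 3 reads in H2O and its interval ran from 105 to 1498. On the scale of RPKM + 0.1, which keeps ratios finite where a value is 0, the log2 differences were 6.68 (counting standard error 0.402) and 9.77 (0.834). The second value depends on the listed 0 and was 7.83 when the RPKM was recomputed from the reads. Standard errors beside such differences, here and below, are those of the log2 ratio of the reads. For Glyma18g41320.1 in NaCl:H2O that ratio was 8.27. Its ratios to H2O on RPKM + 0.1 start from the listed 0, so these errors do not describe them.

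Both loci were called up-regulated in NaCl:H2O, a call meaning a fold of at least 2 on RPKM + 0.1 with an RPKM of at least 1 in 1 of the libraries compared. Of the 38405 transcripts tested in NaCl:H2O, 7.31% were called up-regulated and 11.4% down-regulated. The loci were chosen by this contrast and by the others to H2O, so these numbers are a description and not a test. Ordered from the largest rise downwards, Glyma18g41320.1 was at place 2 and Glyma07g16770.1 at place 21. The transcript at the first place was Glyma03g24320.1, which the supplement annotates as a putative CER1 protein; CER1 of *Arabidopsis* takes part in making the alkanes of leaf wax. It had 4 reads in H2O and 7010 in NaCl. With RPKM recomputed from the reads for all transcripts, the places of the pair were 4 and 6 of 38692.

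**Figure D2:**
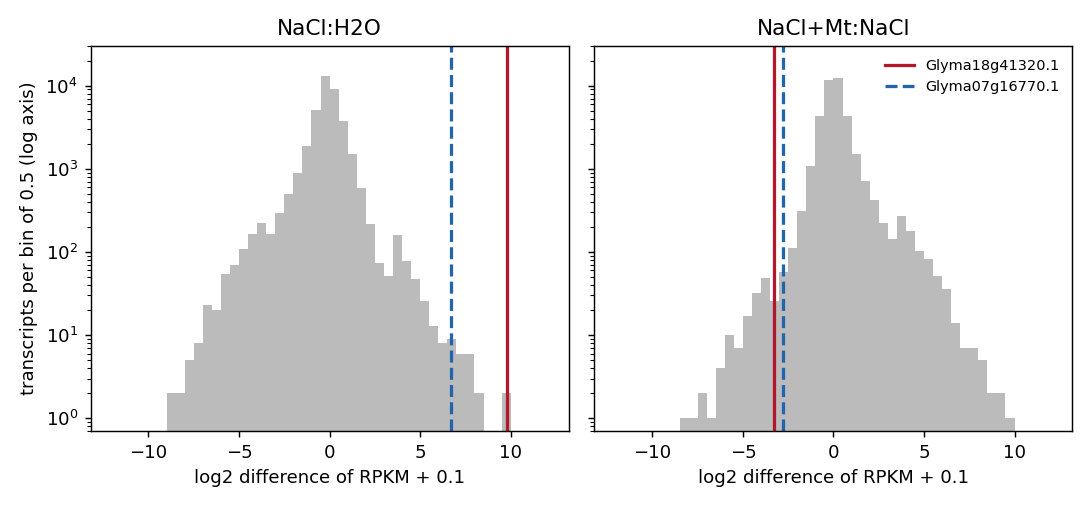
Number of transcripts (y, log axis) by log2 difference of RPKM + 0.1 (x, bins of 0.5) in NaCl:H2O (left) and NaCl+Mt:NaCl (right), with the values of Glyma18g41320.1 (solid line) and Glyma07g16770.1 (dashed line). The pair lay at 9.77 and 6.68 in the right tail of NaCl:H2O, and at -3.27 and -2.81 in the left tail of NaCl+Mt:NaCl.

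Melatonin without salt was also accompanied by higher levels. In Mt:H2O, the ratio was 8.58 for Glyma07g16770.1, with an interval from 4.82 to 16.6, and 25.1 for Glyma18g41320.1, with an interval from 8.27 to 125. The log2 differences of RPKM + 0.1 were 3.003 (standard error 0.423) and 6.17 (0.849), and the latter was 4.23 with the RPKM recomputed from the reads. Both loci were called up-regulated in this comparison, where 21.2% of 41781 transcripts were called up-regulated and 12.5% down-regulated. Such a rise was thus common in the Mt library, and Glyma07g16770.1 was at place 3508 from the top. Glyma18g41320.1 was at place 437, and at 1268 of 42073 with recomputed values. The list from which the loci were taken required a rise in Mt:H2O, so both calls are no independent evidence.

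In NaCl+Mt:H2O, both loci were again called up-regulated, with log2 differences of 3.88 (standard error 0.408) for Glyma07g16770.1 and 6.50 (0.841) for Glyma18g41320.1. The latter was 4.56 with the RPKM recomputed from the reads. In this comparison, 4.92% of 38305 transcripts were called up-regulated and 3.62% down-regulated. From the reads, the ratios were 15.8, with an interval from 9.10 to 29.95, and 31.6, with an interval from 10.6 to 155. These 3 comparisons share the H2O library with its 13 and 3 reads, so they are not independent of each other. A rise of the pair in all 3 was fixed by the list from which the loci were taken.

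The comparison NaCl+Mt:NaCl asks what melatonin changed when salt was present, and here the direction was the opposite. Glyma07g16770.1 was 7.03-fold lower in NaCl+Mt than in NaCl, with an interval from 6.25 to 7.93. Glyma18g41320.1 was 9.77-fold lower, with an interval from 8.24 to 11.7. The log2 differences of RPKM + 0.1 were -2.81 (standard error 0.0866) and -3.27 (0.125). These values rest on between 152 and 1787 reads and thus have smaller counting errors than any ratio to water.

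Both loci were called down-regulated in NaCl+Mt:NaCl, where 4.43% of 38389 transcripts were called down-regulated and 9.86% up-regulated. Ordered from the largest fall, Glyma18g41320.1 was at place 139 and Glyma07g16770.1 at place 168. The median log2 of all transcripts tested was 0.05. This comparison shares the NaCl library with one of those by which the loci were chosen, so it is a description as well.

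**Figure D3:**
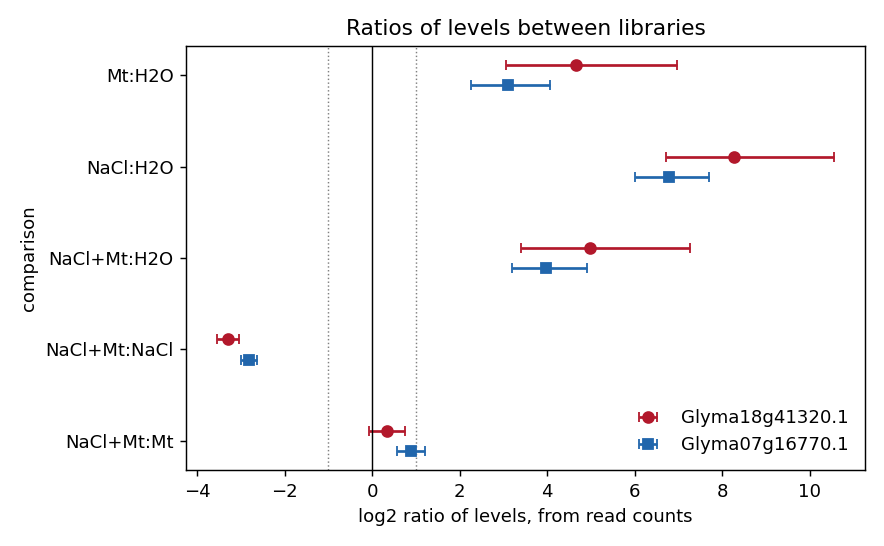
Log2 ratio of levels computed from read counts (x) of Glyma18g41320.1 (circles) and Glyma07g16770.1 (squares) in 5 comparisons (y), with exact 95% counting intervals; dotted lines mark a fold of 2 in either direction. All ratios to H2O were above the upper line, which the choice of the loci had fixed. Both values of NaCl+Mt:NaCl (-3.29 and -2.81) were below the lower line, and those of NaCl+Mt:Mt (0.33 and 0.88) lay between the lines.

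The effect of salt in the presence of melatonin was examined in NaCl+Mt:Mt. Glyma07g16770.1 was 1.84-fold higher in NaCl+Mt than in Mt, with an interval from 1.48 to 2.30. For Glyma18g41320.1, the ratio was 1.26 with an interval from 0.948 to 1.68, so a difference was not detectable at this depth. Neither locus was called, in a comparison where 10.4% of 41573 transcripts were called up-regulated and 19.4% down-regulated. The log2 differences of RPKM + 0.1 were 0.87 (standard error 0.158) and 0.33 (0.204). With TMM scaling of the libraries, that of Glyma07g16770.1 was 1.02, just past a fold of 2.

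The ratio of salt to no salt was thus 111 without melatonin and 1.84 with it for Glyma07g16770.1, from pairs of libraries that share none. On the log2 scale of the reads, the second minus the first was -5.91, with a standard error of 0.432 and an interval from -6.76 to -5.07 for counting alone. For Glyma18g41320.1, this difference was -7.94, with an interval from -9.62 to -6.26. Had the ratios of Mt:H2O and NaCl:H2O multiplied, the RPKM in NaCl+Mt would have been 1186 for Glyma07g16770.1, whereas 19.7 was measured. These differences were not tested against variation between plants. The ratio NaCl:H2O, by which the loci were chosen, enters each of them.

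Glyma07g16770.1 had the higher level of the pair in each of the 4 libraries. Per base of length, its level over that of Glyma18g41320.1 was 1.58 in NaCl (interval from 1.47 to 1.71) and 2.20 in NaCl+Mt (1.81 to 2.68). It was 1.51 in Mt (1.11 to 2.04) and 4.41 in H2O (1.21 to 24.1). The values come from the reads, since the RPKM of Glyma18g41320.1 was listed at 0 in H2O. None of the intervals contained 1. Of the pair's reads, Glyma07g16770.1 held 60.9% of 2934 in NaCl and 68.4% of 481 in NaCl+Mt, against 59.7% of 186 in Mt and 81.25% of 16 in H2O. The interval of the share in NaCl+Mt, from 64.0% to 72.5%, lay above that in NaCl, from 59.1% to 62.7%.

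The pair therefore did not change by quite the same factor between NaCl and NaCl+Mt. Glyma18g41320.1 was lower by a factor 1.39 times that of Glyma07g16770.1, with an interval from 1.13 to 1.71 for counting error. In NaCl+Mt:Mt, the ratio of Glyma07g16770.1 was 1.46 times that of Glyma18g41320.1, with an interval from 1.03 to 2.08. The ratios to H2O differed in the other direction, by 0.36 times in NaCl:H2O, but the interval from 0.102 to 1.26 included 1. Between NaCl and Mt, the ratios differed by 1.05 times, with an interval from 0.778 to 1.42. Should the loci be near-identical copies, the mapping could have divided their reads unevenly, which was not tested.

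**Figure D4:**
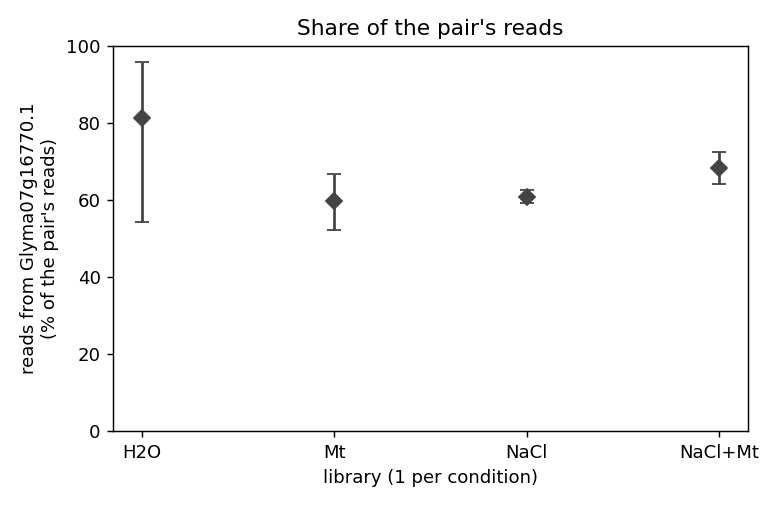
Reads of Glyma07g16770.1 as a percentage of the reads of the pair (y, from 0 to 100) in the 4 libraries (x), with exact 95% binomial intervals. The share was 60.9% in NaCl and 68.4% in NaCl+Mt, and the widest interval was that of H2O, with 16 reads in all.

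Among the 28 transcripts that the supplement lists as raised in all treatments, the pair stood near the top for salt. The list was chosen by the study on these libraries and includes the pair, so it gives no independent evidence. Of the 28, 27 passed the filter in NaCl:H2O, 25 in Mt:H2O and 24 in NaCl+Mt:H2O, and all that passed were called up-regulated. The shares of all transcripts were 7.31%, 21.2% and 4.92%. In NaCl:H2O, Glyma18g41320.1 was at place 2 and Glyma07g16770.1 at place 5 of the 28, against a median log2 of 3.76 over the 28 and of -0.12 over all transcripts tested. In Mt:H2O, Glyma18g41320.1 was at place 4 and Glyma07g16770.1 at place 22, against a median of 4.65 and of 0.05. In RPKM, Glyma07g16770.1 was at place 3 in NaCl and 14 in Mt.

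The list was divided evenly between transcripts with the highest RPKM in NaCl and in Mt, 14 of each with the pair among the former, and 8 of the other 26 had the same order of libraries as the pair. In NaCl+Mt:NaCl, 27 of the 28 passed the filter, of which 9 were called down-regulated and 0 up-regulated, against 4.43% and 9.86% of all. The median log2 of all 28 was -0.43. Glyma18g41320.1 had the third largest fall of the list and Glyma07g16770.1 the fifth. Those larger than both were of the putative CER1 transcript, at -6.30, and of Glyma18g42520.1, annotated as the laccase IRX12, at -3.44. Laccases oxidise phenolic compounds, among them precursors of lignin in cell walls.

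The other lipid genes examined were 12 loci of fatty acid and wax enzymes that the study names. They comprise ketoacyl synthases, which extend acyl chains, desaturases, which introduce double bonds, and the putative CER1. The study names them in its account of these same libraries and reports the ketoacyl synthase genes as raised by melatonin. The putative CER1 is on the list of transcripts raised in each treatment. The counts that follow thus depend in part on how the loci were chosen and give no independent evidence. In Mt:H2O, all 12 were called up-regulated, against 21.2% of all transcripts tested, with a median log2 of 3.17. In NaCl:H2O, 7 passed the filter and 5 of them were called up-regulated and 0 down-regulated, against 7.31% and 11.4% of all. In NaCl+Mt:NaCl, 8 passed, with 2 called up-regulated and 4 down-regulated, against 9.86% and 4.43%. In NaCl+Mt:Mt, all 12 were called down-regulated, against 19.4% of all, and the pair was not called there.

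The locus with the highest mean RPKM of these 12 was the putative CER1, with an RPKM of 95.9 in NaCl, 2.83 in Mt and 1.12 in NaCl+Mt, and listed at 0 in H2O. It was highest in NaCl, as the pair was, but lower in NaCl+Mt than in Mt. The next was Glyma03g07570.1, named *FAD8*, a desaturase that in *Arabidopsis* acts on the lipids of plastids. Its RPKM was highest in Mt, at 47.4, followed by 21.5 in NaCl+Mt, 11.4 in NaCl and 9.24 in H2O.

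Genes linked to salt and osmotic stress were represented by 5 loci that the study names. These are 3 loci of *P5CS2* and 1 of *proC*, which encode the enzymes of proline synthesis, and *RD22* (Glyma04g35130), a gene known in *Arabidopsis* for its response to drought. The loci come from the study's account of these same libraries, so their counts give no independent evidence. *RD22* is also on the list of transcripts raised in each treatment. Its rise over H2O and its lowest level there were thus fixed by that list. In Mt:H2O, all 5 were called up-regulated, against 21.2% of all transcripts. In NaCl:H2O, 3 of the 5 were called up-regulated and 0 down-regulated, where the shares of all transcripts were 7.31% and 11.4%. In NaCl+Mt:NaCl, 2 were called down-regulated and 0 up-regulated, where the shares were 4.43% and 9.86%. In NaCl+Mt:Mt, all 5 were called down-regulated, against 19.4% of all, and the pair was not called there. The RPKM of *RD22* was 2744 in NaCl, 1805 in Mt, 638 in NaCl+Mt and 67.8 in H2O. It shared with the pair the highest level in NaCl and the lowest in H2O, but its level in NaCl+Mt was below that in Mt. The *P5CS2* and *proC* loci were instead highest in Mt.

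The transcripts with the profile most like that of each member were found by the Euclidean distance between centred log2 values of RPKM + 0.1 over the 4 libraries, among 39145 other transcripts whose RPKM averaged at least 1. Only 4 points enter each distance, so this is a description. For Glyma07g16770.1, the nearest were the laccase transcript Glyma18g42520.1 (distance 0.547), Glyma13g35010.1 (0.612), Glyma13g44020.1 (0.677), Glyma18g11820.1 (0.728), annotated as the cytochrome P450 CYP83B1, and Glyma04g05940.1 (0.861). These had between 76 and 606 reads in NaCl and at most 7 in H2O, and all 5 were listed at an RPKM of 0 in H2O. With RPKM recomputed from the reads, 2 of the 5 were still among the nearest, Glyma18g42520.1 and Glyma18g11820.1, and Glyma18g41320.1 moved from place 62 to place 4.

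For Glyma18g41320.1, the nearest were Glyma06g02530.1 (1.57), Glyma20g25520.1 (1.71), Glyma20g33450.1 (2.12), annotated as cycloartenol synthase, an enzyme of sterol synthesis, Glyma18g01720.1 (2.16) and Glyma14g07760.1 (2.19). All 5 were listed at an RPKM of 0 in H2O, although Glyma18g01720.1 had 176 reads there. With RPKM recomputed from the reads, Glyma07g16770.1 became the nearest of 39535 transcripts to Glyma18g41320.1, at a distance of 0.979. On the deposited values it was at place 10.

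The loci next to the pair in the numbering of the chromosomes were compared with it, 3 on each side, a choice made after values were seen. None of these 12 loci was called up-regulated in NaCl:H2O and 4 were called down-regulated, with log2 values from -3.18 to 0.98. With 7.31% of all transcripts called up-regulated and 11.4% down-regulated there, a count of 0 up-regulated among 12 is near the background. In NaCl+Mt:NaCl, 5 were called up-regulated and 0 down-regulated, against 9.86% and 4.43% of all, with values from -0.75 to 3.85. The pair thus lay outside the range of these loci in both comparisons. It was chosen for its rise in NaCl:H2O, and NaCl+Mt:NaCl shares that NaCl library, so this is a description only.

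The loci just before the pair, Glyma18g41310 with 441 bases and Glyma07g16760 with 438, had a different profile. Glyma07g16760.1 had 169 reads in Mt and between 658 and 1456 in the other libraries. Glyma18g41310.1 had 43 reads in Mt and between 136 and 377 in the others. Both were lowest in Mt, where the pair was higher than in H2O. The loci just after the pair, Glyma18g41330 and Glyma07g16790, had log2 values of 0.30 and 0.98 in NaCl:H2O and of 1.22 and 1.30 in Mt:H2O.

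**Figure D5:**
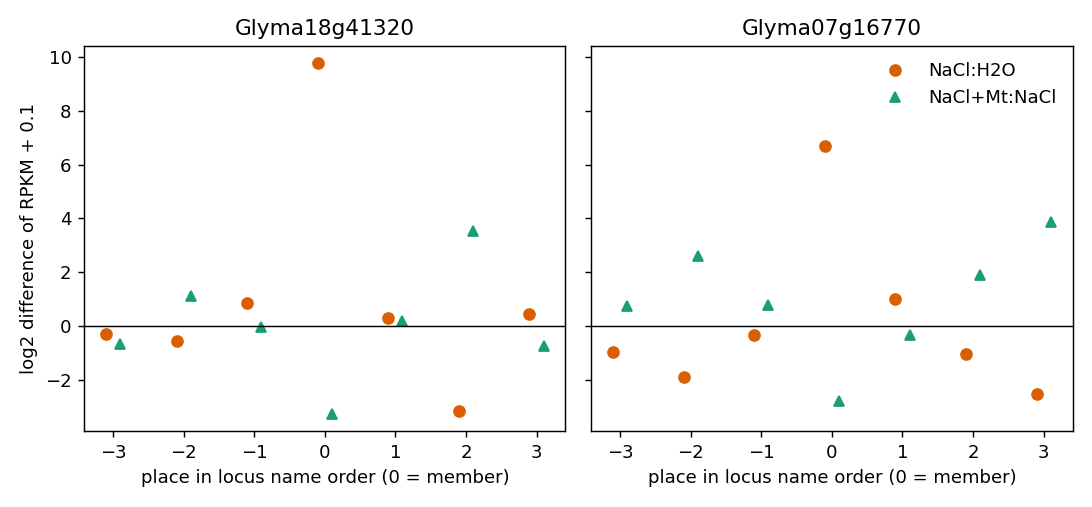
Log2 difference of RPKM + 0.1 (y) in NaCl:H2O (circles) and NaCl+Mt:NaCl (triangles) for Glyma18g41320 (left) and Glyma07g16770 (right) and the 3 loci on each side in the order of locus names (x, with the member at 0). The members, chosen for their rise in NaCl:H2O, had the highest circles, 9.77 and 6.68, and the lowest triangles, -3.27 and -2.81.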

How the data were processed

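Reads were cleaned of adaptors and low-quality sequence and mapped by the authors to the soybean genome with BWA (version 0.7.4 in the submitters' processing notes). The genome build is not given in the sources used here. The authors deposited 1 table that gives, for every transcript model and library, the read count and the RPKM. In each library, the RPKM was 0 for 4628 to 5430 models that had reads, for which no rule is given.

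RPKM was recomputed from reads with the library size that the listed values imply. In each library this size matched the study's total of mapped reads, not that of uniquely mapped reads. Log2 differences were computed from RPKM + 0.1. Calls required a 2-fold difference and, in either library compared, an RPKM of 1 or more. Exact Poisson and binomial (Clopper-Pearson) intervals of 95% came from the counts, and the floor was 3 reads. Intervals of differences between log2 ratios used the normal approximation to counting error. The calls were tested on simulated data with planted changes and counting error alone. Variation between plants and reads listed at an RPKM of 0 were not simulated. Alternatives in pseudocount, filter, fold and scaling were tried. Python 3.11.15, SciPy 1.17.1 and, for TMM scaling, edgeR 4.0.16 were used.

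The members and lists were chosen with earlier results of these data known. Genes named are the pair, the 5 nearest profiles of each, and listed loci with high mean RPKM, except the neighbouring loci, which were chosen after values were seen. An LTP family list could not be drawn up, because 0 RefSeq records named a locus of the table.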

Additional observations from a re-analysis of the deposited data

Results flagged for a closer look

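The log2 difference for melatonin had opposite signs without and with salt at both loci. In Mt:H2O, it was 6.17 for Glyma18g41320.1 and 3.003 for Glyma07g16770.1. In NaCl+Mt:NaCl, the values were -3.27 for the former and -2.81 for the latter. With 1 library per condition, this difference between the comparisons was not tested. The positive sign in Mt:H2O was fixed by the list from which the loci were taken. NaCl+Mt:NaCl shares the NaCl library with a comparison used to choose them.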

How the results depend on the processing

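No paired analysis was possible because each condition has 1 library. Of 60 values of the 5 log2 differences of the pair under other pseudocounts and scalings, 0 changed sign, 48 stayed within the 95% counting interval of the value reported and 12 did not. The 12 are ratios of Glyma18g41320.1 to H2O, where its RPKM is listed at 0 and the pseudocount sets the value. In the order Mt, NaCl, NaCl+Mt over H2O, they were 9.47, 13.09 and 9.80 with a pseudocount of 0.01, and 3.02, 6.46 and 3.31 with 1. A pseudocount of 1 also moved those of Glyma07g16770.1 by more than 1 counting standard error, to 2.38, 5.95 and 3.20. With RPKM recomputed from the reads they were 4.27, 7.89 and 4.63 over the reads on models, and 4.23, 7.83 and 4.56 over the deposited divisor, the latter an alternative chosen after seeing the data. The median of all transcripts moved from -0.12 to 0.00 in NaCl:H2O with median-of-ratios scaling and from -0.12 to 0.04 in NaCl+Mt:Mt with TMM.

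Counts of called transcripts, up and then down, moved most with the thresholds. At a fold of at least 4 they were 5110 and 1834 in Mt:H2O, 698 and 1630 in NaCl:H2O, 496 and 245 in NaCl+Mt:H2O, 1546 and 321 in NaCl+Mt:NaCl, and 1449 and 4230 in NaCl+Mt:Mt. With a filter of RPKM 5 they were 5288 up in Mt:H2O, 1807 and 2621 in NaCl:H2O, 962 and 635 in NaCl+Mt:H2O, 2113 and 905 in NaCl+Mt:NaCl, and 4495 down in NaCl+Mt:Mt. Without a filter they were 3733 and 2226 in NaCl+Mt:H2O and 2660 down in NaCl+Mt:NaCl. With a pseudocount of 1 they were 1211 and 747, and 982. The ratio of the pair kept its direction with counts in place of RPKM. Summing the models of a locus was not run, since each locus has 1 model. The 3 and 13 reads in H2O limit each ratio to water.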
